A study of Mus musculus with 2 samples.

Results

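The cells described here are the neutrophils of imiquimod-treated mouse skin, defined by transcript content in a single-cell RNA sequencing experiment. A cell was taken as a neutrophil when it had at least 200 detected genes, at most 10% mitochondrial transcripts, at least 5% of its transcripts from S100a8 and S100a9 together, and at least 1 transcript of Csf3r, Cxcr2 or Retnlg. This rule found 243 of 18796 cells, of which 238 were among 8499 cells of treated skin and 5 were among 10297 cells of untreated skin. Both libraries came from dorsal skin of wild-type C57BL/6 mice aged 2 months and described as female, and one group received topical imiquimod (IMQ) each day for 5 days while the other was the control. Imiquimod is an agonist of Toll-like receptor 7 that brings about a dermatitis resembling psoriasis, and the series addresses fat cell formation in the dermis and neutrophilic inflammation. Each group had 1 library, and the sources used here do not say how many animals a library holds, so the treatment could not be tested and all values describe these libraries. Skin was digested with collagenase D and DNase and freed of dead cells, steps that can change which cells are recovered.

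Neutrophils are short-lived granulocytes of the bone marrow that enter inflamed tissue through the chemokine receptor CXCR2 and depend on the growth factor receptor CSF3R. They carry granule proteins, which they make mainly while maturing in the marrow, and the calcium-binding proteins S100A8 and S100A9, which form calprotectin and fill much of their cytosol. In psoriasis and in its imiquimod model they gather in the dermis and in the outer epidermis, and they are known as a source of interleukin-1 and of chemokines that draw in further neutrophils. Keratinocytes of inflamed skin also make S100A8 and S100A9, so these genes alone do not mark the cell type.

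The measured values are unique molecular identifiers (UMIs), each counting 1 captured transcript. The control library held 123088680 UMIs over 10857 barcodes and the treated library 144054978 UMIs over 9414 barcodes. The 238 cells that met the rule in treated skin held 1320172 UMIs, which is 0.934% of the UMIs of its kept cells. They were shallow cells: the lowest had 608 UMIs, the median 3438 and the highest 66341, with a median of 958.5 detected genes, against medians of 13003 UMIs and 3351 genes in all other kept cells of that library. A gene can therefore be missed in a single neutrophil at this depth while it is present in the sum over the cells. A total of 23 barcodes occurred in both libraries and 20 of these were kept in both, among them 3 neutrophil barcodes of treated skin, while 0 barcodes were neutrophils in both. Neutrophils made up 2.80% (exact 95% interval 2.46 to 3.17) of kept cells in treated skin and 0.0486% (0.0158 to 0.113) in the control, a 57.7-fold (24.4 to 179) higher share. All intervals in parentheses are at 95% and cover counting error alone, not the spread between animals.

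The rule took in 9 cells of another kind. These 9 had at least 2% of their UMIs from 8 keratin genes, a median of 53143 UMIs, and together 37.0% of all neutrophil UMIs of treated skin. Their S100a8 and S100a9 share lay close to the threshold, with a median of 5.53%, and they entered through Cxcr2 alone, with 18 UMIs over all 9 cells. They held 0 UMIs of Retnlg, Csf3r and Ly6g, the surface antigen by which mouse neutrophils are usually sorted, and were led by Klk7, Crct1, Rbp2, Sprr2d and Cst6, genes of the upper epidermis. Klk7, a protease of the cornified layer, stood at 2817 CPM (a gene's UMIs in a set of cells, scaled to a common total) in them and at 1.20 CPM in the other 229 cells. The label of neutrophils does not hold for these 9 cells, and levels and counts of genes are therefore given for the 229 cells that are not keratin-rich, for all 238 or for both, as each sentence says. Fold ratios over all other cells and shares of a gene's transcripts are for all 238 cells unless the 229 are named. Because the 9 cells hold over 1 in 3 of the UMIs, a gene that they lack has a higher CPM in the 229 cells than in the 238.

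The other 229 cells carried neutrophil markers that the rule did not use. Ly6g stood at 559 CPM and was seen in 47.6% of them, against 0.0968% of all other kept cells, whose median depth was higher. All 29 neutrophil markers outside the rule were detected in the 229 cells, with a summed level of 39928 CPM against 893 CPM in all other cells. The genes of the rule are given as a description: Retnlg, which encodes a resistin-like protein of myeloid cells, was seen in 89.1% of the 229 cells at 18898 CPM, Csf3r in 86.5% at 663 and Cxcr2 in 75.5% at 514.

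Several lists of markers of other cell types summed to less in the 229 cells than in all other cells. Keratinocyte markers summed to 366 CPM against 23372, fibroblast markers to 272 against 29543, and endothelial markers to 10.8 against 212. T cell markers summed to 4.81 against 163 CPM, natural killer markers to 13.2 against 60.5, and B cell markers to 0 against 7.44. Macrophage markers summed to 251 against 2752 CPM, where 5 of 11 (C1qa, C1qc, Cd163, Pf4 and Ms4a7) had 0 UMIs and Csf1r and Cd68 counted as higher. Other lists were as high or higher. Monocyte markers summed to 3035 CPM against 959 in all other cells and 16894 in monocytes, with Ly6c2, Csf1r, Chil3 and Lyz2 higher than in all other cells. The monocytes, defined below, were themselves chosen by some of these markers. Dendritic cell markers summed to 721 against 699.8 CPM, basophil markers to 75.7 against 62.9, and eosinophil markers to 15.6 against 2.21, with Epx and Prg2 at 0 UMIs. In the clusters described below, dendritic cell markers summed to 31.3 CPM in A, 96.3 in B and 6660 in the 12 cells of C. Mast cell markers summed to 1422 against 94.4 CPM, of which the histamine-forming enzyme Hdc, also a neutrophil marker, gave 1415, while Cpa3, Mcpt4, Tpsb2, Mrgprb2 and Tpsab1 had 0 UMIs. Red blood cell markers summed to 10163 against 6889 CPM. The part of other cells in the results was not tested. In 1 cell haemoglobin genes made up 68.3% of UMIs, and in the next highest 0.329%. A doublet caller marked 113 cells of treated skin (1.33%, against 6.80% expected), of which 2 were neutrophils and 0 keratin-rich ones, so doublets may remain.

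Near the thresholds the cells were mixed. Of 11 cells with 5 to 6% S100a8 and S100a9, 6 were keratin-rich, and of 10 cells with a single receptor UMI, 5 were. Just outside lay 22 cells with 4 to 5% and a receptor UMI, 7 of them keratin-rich, and 35 cells with at least 5% and 0 receptor UMIs, 27 of them keratin-rich. In all, 69 cells had at least 3 receptor UMIs but under 5%, a set that overlaps the 22 cells. Over the 238 cells the S100a8 and S100a9 share had a lowest value of 5.03%, a median of 20.1% and a highest of 47.0%, and the 3 receptor and Retnlg counts summed to 1 at the lowest, 45.5 at the median and 384 at the highest.

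**Figure D1:**
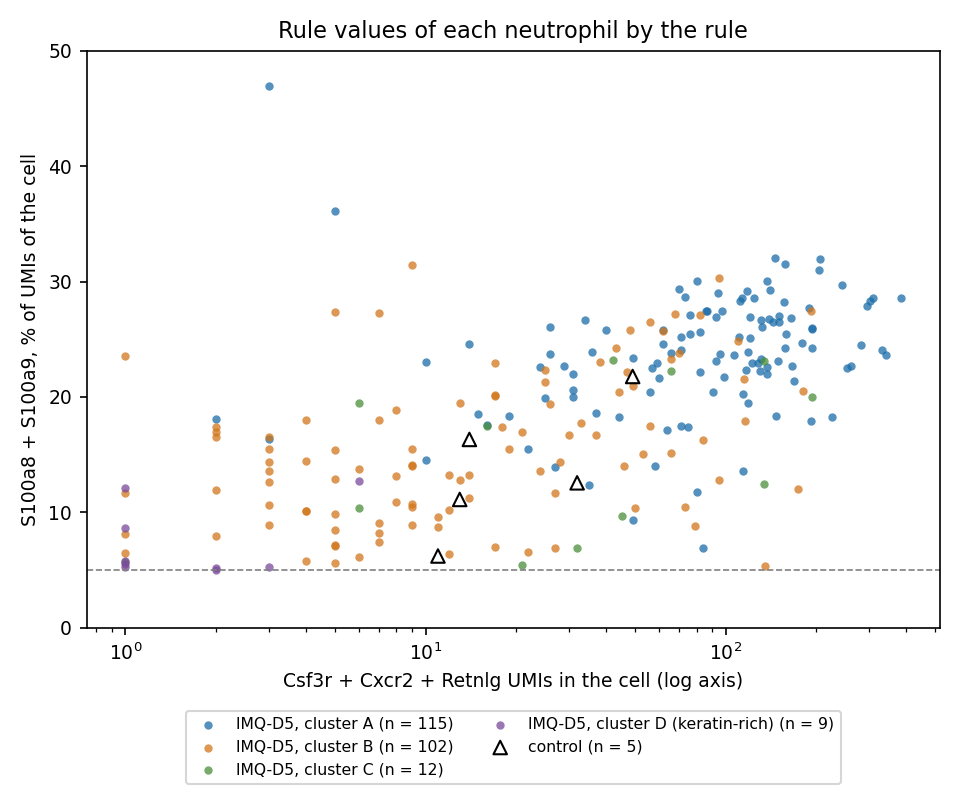
Each point is 1 cell that meets the rule, with the summed UMIs of Csf3r, Cxcr2 and Retnlg on a log axis and the share of S100a8 and S100a9 in its UMIs (%) on the other. Colours mark 4 clusters of the treated-skin cells, triangles the 5 control cells and the dashed line the threshold of 5%. The 9 keratin-rich cells sit at the lower left, with few receptor UMIs and mostly just over the threshold.

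The genes with the highest levels relative to all other cells of treated skin were neutrophil genes. A gene counted as higher or lower when it had at least 20 UMIs over both sets, differed by at least 2-fold in CPM and had an interval that excluded equality. Because the same cells were chosen by their transcripts, these ratios describe the cells and test nothing. The call was higher for 1358 (8.46%) and lower for 6283 (39.1%) of 16050 genes, whose log2 ratios had a median of -0.65. The 5 genes of the rule alone summed to 166114 CPM in the 238 cells and 2534 CPM elsewhere. With that median set to 0, the split was 2087 higher and 3841 lower. Without the keratin-rich cells it was higher for 1395 (8.69%) and lower for 6257 (39%) of 16046 genes, and the median was -0.55. The counts of higher and lower genes in the lists below, against all other cells, are to be read beside these shares of all genes.

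Ngp, a cathelin-related granule protein, led with 845 CPM in the 238 cells, 1339.6 CPM in the 229 and 0.114 CPM elsewhere, a 7392-fold (4532 to 12978) ratio. Among the next were the iron-binding granule protein lactoferrin, Ltf (6612-fold, 2228 to 32352), Retnlg (1453-fold, 1369 to 1545) and Ly6g (1701-fold, 1169 to 2568). The receptors Csf3r and Cxcr2 were 201-fold (174 to 233) and 188-fold (161 to 220.0) higher, the antiprotease-like Wfdc17 and Wfdc21 155-fold (149.5 to 160.4) and 253-fold (233 to 274). Cd177, a surface glycoprotein of neutrophils, was 267-fold (196 to 369) higher, Prok2, a secreted chemoattractant peptide, 154-fold (123 to 193), and Nfe2, a transcription factor of the myeloid and erythroid lineages, 197-fold (133 to 295). The other genes of the 30 highest included the activating receptors Trem1 and Trem3, the lectin receptor Clec4d, the inhibitory receptors Cd33 and Cd300lf, the interferon-related Slfn1 and Slfn4, the bacterial peptidoglycan-binding Pglyrp1 and the receptors Fpr1 and C5ar1. Stfa2l1, Gm5483 and Mrgpra2b were also among them, but belong to families of near-identical copies whose reads the counting may have divided, so their values are uncertain. Lce3d, a cornified envelope gene, was the exception among the 30: all 240 UMIs it had in the 238 cells came from keratin-rich cells, and it had 0 in the 229.

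The 238 cells held a large part of several transcripts of treated skin while holding 0.934% of its UMIs. Their share was 98.6% for Ngp, 94.1% for Ly6g, 93.2% for Retnlg, 42.9% for Irg1 (now named Acod1, the enzyme that makes itaconate) and 40.6% for the lipase inhibitor G0s2. They held 39.4% of S100a9 and 32.7% of S100a8, so that most transcripts of both genes lay in cells outside the rule. Of these S100a9 and S100a8 UMIs, 16.5% and 18.9% came from the 9 keratin-rich cells, which held 37.0% of all UMIs of the 238. Among secreted factors the share of the 238 cells was 28.4% for Il1b, 23.3% for Cxcl2, 22.7% for Il1a, 20.3% for Ccl6 and 19.2% for Cxcl3. For Tnf it was 5.08%, for Lcn2, the siderophore-binding lipocalin, 7.09%, and for Cxcl1, another ligand of CXCR2, 0.0560%. The counting intervals of these shares are drawn in the plot of transcript shares.

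**Figure D2:**
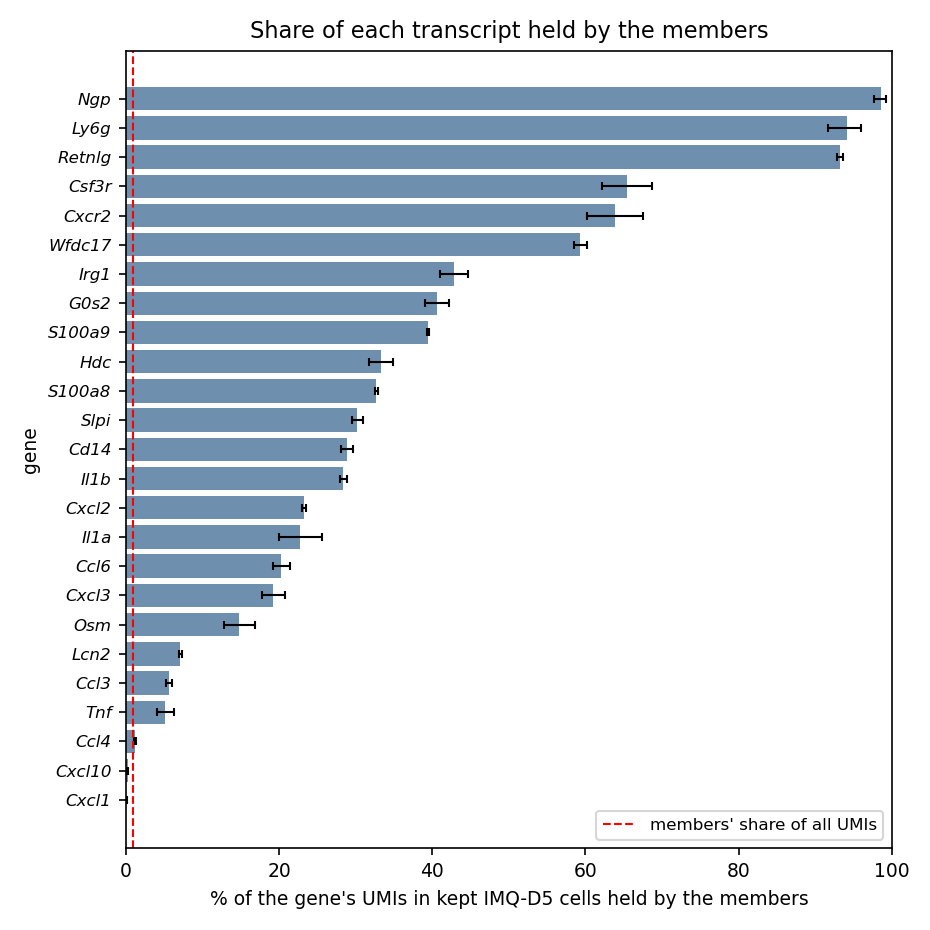
Bars give, for each gene, the percent of its UMIs in kept cells of treated skin that lay in the 238 cells that met the rule, with exact 95% intervals for counting error. The dashed line marks their share of all UMIs, 0.934%. Ngp, Ly6g and Retnlg lie above 90%, Il1b and Cxcl2 between 20 and 30%, and Cxcl1 and Cxcl10 below the line.

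Genes of the late granules were high, and several of the early ones had 0 UMIs. Of 15 measured genes of specific and gelatinase granules, 14 were higher in the 238 cells and 15 in the 229, with a median log2 ratio of 5.04 and 5.70. Per cell, Lcn2 had a lowest value of 0, a median of 44.2 and a highest of 352 UMIs per 10000 in the 229 cells, with 20 cells at 0. Its summed level was 3977 CPM in the 238 cells and 6178 in the 229, against 491 elsewhere (8.10-fold, 7.87 to 8.33). The collagenase Mmp8 stood at 547 CPM in the 229 cells against 4.57 elsewhere, and the gelatinase Mmp9 at 619 against 1.74. Lysozyme, Lyz2, stood at 2161 against 219 CPM, and the haptoglobin gene Hp at 1929 against 186 CPM. Ngp, Camp (the cathelicidin precursor) and Ltf were unevenly spread: Ngp was seen in 23.5% of the 238 cells, Camp in 7.14% and Ltf in 4.62%, and 1 cell held 38.1%, 45.7% and 39.0% of their neutrophil UMIs. Without its highest cell each stayed higher than elsewhere, with log2 ratios of 12.17, 7.09 and 11.99 in place of 12.85, 7.96 and 12.69.

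Of 11 genes of azurophil granules and progenitors 7 could be compared, of which Prtn3 was higher, at 6.82 against 2.95 CPM and from 9 UMIs, and the proliferation genes Mki67 and Top2a were lower. Mpo (myeloperoxidase), Elane (neutrophil elastase), Ctsg, Ms4a3, Gfi1 and Fcnb, made in immature marrow cells, had 0 UMIs in the 229 cells. A count of 0 in 832355 UMIs allows up to 3 counts, so low levels of these genes were not detectable at this depth. The stefin A genes, small cysteine protease inhibitors in a cluster of near-identical copies, all 9 counted as higher in the 238 cells, with a median log2 ratio of 3.003. Without the keratin-rich cells 3 were higher (Stfa2, Stfa2l1 and Gm5483), 3 lower (Stfa3, BC100530 and Csta1) and the median was -0.14, so that the direction of this family rested on 9 cells. BC100530 stood at 21445 CPM in the 9 cells and 484 CPM in the 229, and Stfa2l1 at 0 and 1454 CPM.

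Retnlg and Ngp had higher summed levels in the neutrophils than in other cells and, below, in cluster A than in cluster B. For Retnlg both directions were set by the choice of cells and the naming of the clusters, and Ngp had 0 UMIs in 173 of the 229 cells. The bases upstream of Retnlg (ENSMUSG00000022651, chromosome 16, 48872621 to 48874496) and Ngp (ENSMUSG00000032484, chromosome 9, 110419747 to 110423012, coordinates of GRCm38 from GENCODE M21) are shown as a description. They are RefSeq sequence of GRCm38.p6, chr16:48872358-48872607 and chr9:110419558-110419746 on the plus strand, 5′ to 3′ and ending before the gene's start, with matches to TTGCNNAA, a C/EBP-like motif searched on both strands, in capitals.
Retnlg: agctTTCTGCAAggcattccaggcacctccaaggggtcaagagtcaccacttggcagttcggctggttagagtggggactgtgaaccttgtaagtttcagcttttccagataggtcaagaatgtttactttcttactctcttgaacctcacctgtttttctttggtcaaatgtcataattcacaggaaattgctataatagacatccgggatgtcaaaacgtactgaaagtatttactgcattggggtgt
Ngp: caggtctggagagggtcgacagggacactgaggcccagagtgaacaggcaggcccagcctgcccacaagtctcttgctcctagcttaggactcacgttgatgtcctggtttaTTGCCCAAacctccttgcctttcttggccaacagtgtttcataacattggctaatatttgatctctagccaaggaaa

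Each window holds 1 match, and neither holds the kB motif given further on. Over all 32851 RefSeq windows of 250 bases before a start, 9.56% hold this motif. Counted by gene, 10.8% of 27025 genes with a window hold it, as do 17.1% (14 of 82) of those higher in cluster A below and 9.90% (20 of 202) of those higher in cluster B. A match is a description of the letters alone.

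Receptors for chemoattractants were expressed broadly. Of 16 measured, 11 were higher in the 238 and in the 229 cells, Cxcr2 of the rule among them, with a median log2 ratio of 4.87 and 5.39. The formyl peptide receptors Fpr1 and Fpr2 stood at 252 and 192 CPM in the 229 cells against 1.08 and 1.75 elsewhere, the complement receptor C5ar1 at 457 against 3.37, the chemokine receptor Ccr1 at 460.1 against 5.05, and the leukotriene B4 receptor Ltb4r1 at 163 against 12.05. Cxcr4, the receptor for marrow retention, stood at 74.5 against 6.08 CPM. Cx3cr1, the fractalkine receptor, was lower in the 238 cells, a call not made in the 229. Of 15 adhesion genes 9 were higher, among them the P-selectin ligand (Selplg, 26.0-fold, 23.5 to 28.8) and the integrin chains Itgam (14.1-fold, 12.4 to 16.1) and Itgb2 (20.1-fold, 17.3 to 23.3), while Itgb1 and Pecam1 were lower in both sets.

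Genes of microbial sensing, Fc receptor signalling and the oxidative burst followed. Of 16 pattern recognition genes 11 were higher in the 238 cells and 13 in the 229, where the inflammasome adaptor Pycard was lower. Cd14, a co-receptor for lipopolysaccharide, stood at 4531 CPM against 66.5 elsewhere, Tlr2 at 268 against 7.57, the inflammasome sensor Nlrp3 at 339 against 6.13, and Tlr13, a sensor of bacterial RNA, at 28.8 against 0.493. Tlr7, the receptor that imiquimod binds, had 4 UMIs in 3 of the 238 cells, that is 3.03 CPM (0.826 to 7.76) against 0.678 elsewhere. This passed the rule as higher on 4 UMIs, while Tlr7 stood at 27.2 CPM in monocytes and 16.1 in macrophages of the same library. Of 15 genes of Fc receptors and phagocyte signalling 11 were higher, among them the adaptors Tyrobp (4151 against 80.8 CPM) and Fcer1g (3064 against 95.04 CPM). Of 12 genes of the oxidase and of extracellular traps 9 were higher in the 238 cells and 10 in the 229. The cytosolic oxidase subunit Ncf1 stood at 388 CPM against 4.72, and Padi4, which citrullinates histones, at 79.3 against 0.464. The membrane subunit Cybb was higher by summed UMIs in the 238 cells, 71.2 against 19.3 CPM, but lost its call when each cell weighed equally (log2 ratio 0.35 in place of 1.88). Of 19 cytoskeleton genes 12 were higher in the 238 cells and 18 in the 229, and 0 were lower in either.

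Interleukin-1β was the most widespread cytokine transcript among the neutrophils. Il1b (ENSMUSG00000027398, chromosome 2, 129364570 to 129371139) had a lowest value of 0, a median of 128 and a highest of 517 UMIs per 10000 in the 229 cells, with 1 cell at 0, whereas 8 of the 9 keratin-rich cells were at 0. Its level was 8278 CPM in the 238 cells, 13128 in the 229 and 197 elsewhere (42-fold, 41.1 to 42.9). After each cell was thinned to 1000 UMIs, which left out 5 neutrophils and 192 other cells, Il1b was seen in 94.8% of neutrophils and 6.07% of other cells, against 96.2% and 10.1% unthinned. Of 20 cytokine genes 10 were higher in the 238 cells and 9 in the 229, and 4 were lower in both: Il6, Il17a, Csf1 and Csf3. The higher ones included Il1a (214 against 5.01 CPM), Tnf (103 against 11.5), oncostatin M (Osm, 217 against 7.48), Il15 (72.1 against 2.57) and Il1f9, which encodes interleukin-36γ (259.5 against 20.1). Il18 was higher with the keratin-rich cells (log2 ratio 1.28) and not without them (-0.54). Genes that restrain interleukin-1 were also higher: the decoy receptor Il1r2 stood at 1111 against 115 CPM and the antagonist Il1rn at 169 against 19.9. Csf3, which encodes the ligand of CSF3R, had 4 UMIs in the neutrophils, 3.03 against 20.1 CPM.

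Among chemokines the neutrophils were higher in the CXCR2 ligands Cxcl2 and Cxcl3 and in Ccl3 and Ccl6, and lower in several others. Cxcl2 (ENSMUSG00000058427, chromosome 5, 90903871 to 90905938) had a lowest value of 0, a median of 196 and a highest of 1430.2 UMIs per 10000 in the 229 cells, with 8 cells at 0. Its level was 15490.4 CPM in the 238 cells, 24563 in the 229 and 482 elsewhere (32.2-fold, 31.7 to 32.7). Cxcl3 (ENSMUSG00000029379, chromosome 5, 90786103 to 90789600), on the same chromosome, was seen in 19.3% of the cells and stood at 395 CPM in the 238 and 626 in the 229, against 15.6 elsewhere. Its ratio was 25.2-fold (22.9 to 27.8) for the 238 cells and 40.01-fold (36.3 to 44.0) for the 229. Ccl3 stood at 1105 against 110.2 CPM and Ccl6 at 1222 against 28.7. Cxcl1, by contrast, stood at 41.7 CPM against 700.3 elsewhere, 16.8-fold (12.9 to 22.3) lower, and 1 cell held 49.1% of its neutrophil UMIs. The monocyte attractant Ccl2 was 67.3-fold (36.6 to 140.4) lower and the interferon-induced Cxcl10 3.94-fold (3.08 to 5.13) lower. Over 17 chemokine genes 5 were higher and 5 lower in the 238 cells, and 4 higher and 7 lower in the 229. Over all genes 8.46% were higher and 39.1% lower in the 238 cells, and 8.69% and 39% in the 229. The median log2 ratio of the chemokines was -0.35 in the 238 cells, 0.31 in the 229 and 0.30 in the 238 with the all-gene median set to 0, so the list has no common direction. Ccl20 counted as higher with the keratin-rich cells and as lower without them, at 164 CPM in the 9 cells, 98.8% of it from 1 cell, and 0 UMIs in the 229.

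The bases upstream of Cxcl2 and Cxcl3 are shown because these genes were the CXCR2 ligands that the neutrophils carried at high levels. They are RefSeq sequence of GRCm38.p6, chr5:90903649-90903870 and chr5:90785851-90786100 on the plus strand, 5′ to 3′, with matches to an NF-kB-like motif (the kB motif: GGG, any 2 bases, then TTTCC), searched on both strands, in capitals.
Cxcl2: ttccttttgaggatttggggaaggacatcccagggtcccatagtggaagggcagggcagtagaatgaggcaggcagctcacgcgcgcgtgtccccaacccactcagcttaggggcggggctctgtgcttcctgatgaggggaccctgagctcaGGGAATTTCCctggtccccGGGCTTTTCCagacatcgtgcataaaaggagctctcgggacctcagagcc
Cxcl3: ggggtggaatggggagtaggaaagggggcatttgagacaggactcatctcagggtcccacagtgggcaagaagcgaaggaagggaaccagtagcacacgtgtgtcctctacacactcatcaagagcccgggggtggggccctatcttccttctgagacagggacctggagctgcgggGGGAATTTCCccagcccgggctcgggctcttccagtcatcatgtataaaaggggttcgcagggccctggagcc

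Cxcl2 holds 2 matches and Cxcl3 holds 1, and neither window holds TTGCNNAA. Of all 32851 windows of 250 bases, 1.41% hold the kB motif. These matches describe the letters of the windows, and binding was not measured.

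NF-kB targets, survival genes and interferon-related genes were raised in part. Of 21 NF-kB targets and feedback genes 12 were higher in the 238 cells and 14 in the 229. Irg1 was seen in 87.8% of the 238 cells and stood at 1434 CPM in the 229, a ratio over other cells of 79.6-fold (73.7 to 85.8) for all 238. The inhibitor Nfkbia stood at 3234 CPM in the 238 cells and 4467 in the 229 against 2426 elsewhere, under 2-fold in both. In the 238 cells its log2 ratio was 0.41, and 1.07, which passes the rule, with the all-gene median set to 0. Icam1 counted as lower in the 238 cells (log2 ratio -1.64), but not in the 229 (-0.98). Of 18 survival and death genes 10 were higher in the 238 cells and 11 in the 229, among them Mcl1 (1663 against 317 CPM), the kinase Pim1 (1857 against 317), Gadd45b (3279.8 against 775) and the death receptor Fas (335 against 20.7). Bcl2, Bax and Bak1 were lower in both sets. Of 29 interferon response genes 12 were higher and 5 lower in the 238 cells, and 13 higher and 4 lower in the 229. The membrane proteins Ifitm1 and Ifitm2 stood at 8186 and 5689 CPM against 185 and 1011, and the antiviral genes Isg15 and Rsad2 at 112 and 60.1 CPM against 18.3 and 11.5. In macrophages Isg15 and Rsad2 stood at 172 and 229 CPM. Ifi47, Slfn5, Bst2 and Cxcl10 were lower in both sets.

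Metabolic and lipid genes showed single strong members, while most inhibitory receptors and decoys were higher. The glucose transporter Slc2a3 was 67.2-fold (59.0 to 76.4) higher, and of 22 hypoxia and glycolysis genes 8 were higher in the 238 cells and 9 in the 229, where Hk2, Adm and Arg1 were lower. Alox5ap, needed for leukotriene synthesis, was 35.1-fold (33.4 to 37.0) higher and the prostaglandin synthase Ptgs2 2.59-fold (2.41 to 2.79), in a list of 14 lipid mediator genes with 5 higher and 4 lower. The ferritin heavy chain Fth1 stood at 47768 CPM in the 229 cells against 5095 elsewhere. Of 18 inhibitory receptors and decoys 13 were higher in the 238 cells and 14 in the 229, among them Cd274, which encodes PD-L1 (268 against 10.2 CPM). Of 17 remodelling genes 6 were higher and 6 lower in the 238 cells, Serpinb2 being higher with the keratin-rich cells (log2 ratio 2.30) and lower without them (-3.66). The transcription factors Spi1 (PU.1) and Cebpb stood at 662 and 4069 CPM in the 229 cells against 11.8 and 698. Of 18 genes of the immediate early and dissociation response 9 were lower in the 238 cells and 10 in the 229, beside 39.1% and 39% of all genes, including Jun (5.10-fold lower, 4.75 to 5.48) and Hspa1a (2.30-fold lower, 2.15 to 2.45), while Klf2 and Btg1 were higher. Fos was 3.04-fold (2.88 to 3.22) lower, and the calls of Fos and Hspa1a were lost with the all-gene median set to 0 (log2 ratios -0.95 and -0.55). The lowest genes relative to other cells were those of fibroblasts and keratinocytes, such as Dcn (30.04 against 5333 CPM), Col3a1 (58.9 against 6298) and Krt5 (14.4 against 1623). Free RNA was estimated at 1.28% of the library's level in the 229 cells and 1.37% in the 238. With it subtracted from the 238 cells, 1371 genes were higher and 6272 lower, in place of 1358 and 6283. Its part in these low values was not otherwise tested.

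Monocytes, macrophages and keratin-rich cells of treated skin were the cells most like the neutrophils or the other carriers of calprotectin. Monocytes were 253 cells with Lyz2, with Csf1r, Ccr2 or Ly6c2 and with at most 1 UMI of C1q genes, macrophages 100 cells with C1q genes and Csf1r, and keratin-rich cells 956 cells outside the rule. Some monocytes and macrophages lay just under the threshold, with highest S100a8 and S100a9 shares of 4.99% and 4.96%. Their highest summed counts of Csf3r, Cxcr2 and Retnlg were 265 and 114 UMIs, and Retnlg was seen in 2.37% and 2% of them. The part of such cells in the ratios was not tested. Against monocytes the 229 cells had 587 genes higher (7.85%) and 3800 lower (50.8%) of 7477, and against macrophages 789 higher (11.3%) and 3706 lower (53%) of 6996. Over all 238 cells the counts were 851 higher (10.5%) and 3360 lower (41.5%) of 8099 against monocytes, and 945 higher (12.3%) and 3471 lower (45%) of 7710 against macrophages. Of the 29 neutrophil markers outside the rule 24 were higher in the 229 cells than in monocytes and 28 than in macrophages, and 22 and 25 in all 238. The values that follow are for the 229 cells. Cxcl2 and Cxcl3 were the chemokines higher than in monocytes, at 2.42-fold (2.38 to 2.47) and 10.2-fold (8.33 to 12.6), while 8 of 12 were lower, among them Ccl4 (458 against 4587 CPM), Ccl2 (9.61 against 139) and Cxcl1 (63.7 against 679). Il1b differed by less than 2-fold from monocytes, 1.74-fold (1.70 to 1.79) higher, and was 4.01-fold (3.87 to 4.16) higher than in macrophages. Tnf was lower than in monocytes at 103 against 187 CPM, under 2-fold, and lower than in macrophages at 227 CPM (2.19-fold, 1.72 to 2.83). Il1r2 was 6.75-fold (5.93 to 7.70) higher than in monocytes, Osm 2.96-fold (2.36 to 3.72) and Slc2a3 34.9-fold (23.3 to 54.6). The oxidase subunit Cybb was 8.43-fold (6.85 to 10.5) lower than in monocytes, while Ncf1 was 4.55-fold (3.75 to 5.54) higher. Lyz2 was 5.17-fold (4.93 to 5.43) lower, but the monocytes were chosen by their Lyz2, so this ratio was partly set by that choice. All 5 rule genes were higher, as the choice of cells sets.

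Genes of MHC class II presentation set the neutrophils apart in the other direction. They summed to 767 CPM in the 229 cells, 5285 in monocytes and 21381 in macrophages, and 8 of 9 and 9 of 10 were lower. The highest cell held 87.0% of the UMIs of Cd74, the invariant chain, and without it the log2 ratio of Cd74 in the 238 cells against all other cells was -3.19 in place of -0.26. Against keratin-rich cells outside the rule, 1653 of 12380 genes were higher (13.4%) and 4978 lower (40.2%). S100a8 stood at 78289.9 CPM in the 229 neutrophils, 3986 in the 956 keratin-rich cells, 1382 in monocytes and 812 in macrophages, and S100a9 at 122626, 4649, 1440.5 and 910.0 CPM.

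**Figure D3:**
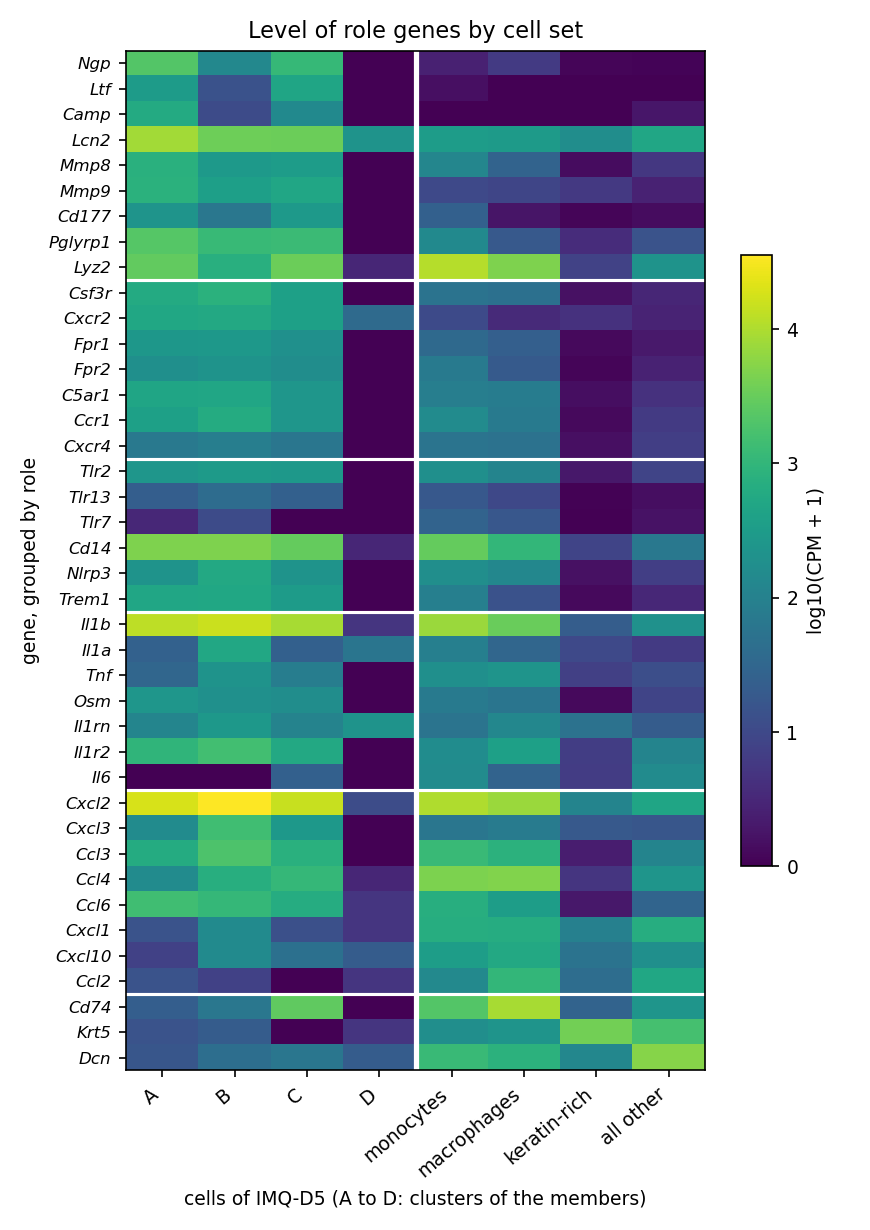
Colour gives log10 of CPM plus 1 for genes in rows, grouped by role, and for cell sets of treated skin in columns: the clusters A to D of the neutrophils, then monocytes, macrophages, keratin-rich cells and all other cells. Il1b and Cxcl2 are bright in clusters A, B and C as well as in monocytes and macrophages, whereas Ngp, Camp and Ltf are seen mainly in clusters A to C, and cluster D is dark for both groups.

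The neutrophils of treated skin differed among themselves. Clustered alone, on 2000 variable genes, they fell into 4 clusters, and into 7 at a resolution of 1. A and B are the largest clusters, A being the one with the higher mean share of Retnlg, and C and D follow by size. The direction of Retnlg between A and B was therefore set by the naming, here and in the second clustering below. Cluster A held 115 cells and was led by Camp, Ngp, Ly6g, Ifitm6 and Retnlg. Cluster B held 102 cells and was led by Spp1, Cxcl3, Il1a, Igfbp6 and Hilpda. Cluster C held 12 cells and cluster D the 9 keratin-rich cells. The median depth was 3687 UMIs in cluster A, 2899 in B, 6230 in C and 53143 in D, and the median share of S100a8 and S100a9 was 23.9%, 14.4%, 14.99% and 5.53%. The haemoglobin-rich cell lay in cluster A, where red blood cell markers summed to 18702 CPM against 252 in B. Free RNA was estimated at 1.03% of the library level in A and 1.24% in B, and its part in the differences was not tested. Among the 229 cells the genes that varied most beyond counting noise, as variance over that of Poisson counting, were Ngp (196), Cd74 (192) and S100a9 (108), with Camp (83.7), Cxcl2 (71.1) and Retnlg (66.1) among the first 11. This measure grows with the level of a gene.

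Clusters A and B differed in granule and marker genes on one side and in inflammatory genes on the other. Because the clusters were made from the same transcripts, these values describe the clusters and test nothing. Of 2745 genes 102 were higher in A (3.72%) and 260 lower (9.47%), with an all-gene median log2 ratio of -0.19, and with S100a8 and S100a9 left out of the totals 147 were higher and 182 lower. Clustered again on variable genes that are in none of the gene lists used here, the cells fell into 108, 110, 11 and 9, and 93 of the 115 cells of A and 88 of the 102 of B kept their cluster. In that clustering 102 genes of 2761 were higher (3.69%) and 203 lower (7.35%). The listed genes had no part in it, though genes that vary with them did.

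Retnlg per cell had a lowest value of 0, a median of 247 and a highest of 609 UMIs per 10000 in cluster A, with 1 cell at 0, and a lowest value of 0, a median of 40.9 and a highest of 509 in B, with 23 cells at 0. The ranges overlapped, and the median of A lay above the upper quartile of B. In sums it stood at 27585 against 9129 CPM (3.02-fold, 2.90 to 3.15), in the direction by which the clusters were named. Of 14 granule genes 9 were higher in A and 0 lower in both clusterings, with a median log2 ratio of 1.34 and 1.72. Lcn2 stood at 8474 against 3532 CPM (2.40-fold, 2.24 to 2.57), Mmp8 at 764 against 286 (2.67-fold, 2.10 to 3.43), Lyz2 at 2881 against 738 (3.91-fold, 3.39 to 4.53) and Ngp at 2193 against 133 (16.5-fold, 12.03 to 23.2). Ngp was seen in 40% of the cells of A and 7.84% of B, and without the highest cell of each cluster its log2 ratio was 4.85 in place of 4.04. Camp stood at 612 against 9.97 CPM, from 11.3% and 2.94% of cells. Of 29 neutrophil markers outside the rule 6 were higher in A in both clusterings, Ly6g (3.73-fold, 2.88 to 4.88), Mmp8, Mmp9, Cd177, G0s2 and Ifitm6, and Ccrl2, a non-signalling chemokine receptor, was lower.

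Some cytokine, chemokine, survival and hypoxia genes were higher in cluster B. Over all genes compared 9.47% were higher in B and 3.72% in A, and 7.35% and 3.69% in the clustering without listed genes. The counts of list genes here and in the next paragraph are to be read beside these shares. Cxcl2 per cell had a lowest value of 0, a median of 171 and a highest of 635 UMIs per 10000 in A and a lowest value of 0, a median of 253 and a highest of 1430.2 in B, with 4 cells at 0 in each, and the ranges overlapped. In sums Cxcl2 stood at 18767 against 35843 CPM, 1.91-fold (1.86 to 1.97) higher in B and so just under the 2-fold rule, and 1.46-fold higher when clustered without listed genes. Cxcl3 was 8.97-fold (6.96 to 11.7) higher in B, Il1a 22.3-fold (12.1 to 45.6), Tnf 6.91-fold (3.84 to 13.3) and Ccl3 3.02-fold (2.62 to 3.498), and in the clustering without listed genes 3.14-fold, 10.6-fold, 4.69-fold and 2.10-fold. These transcripts came from some of the cells: Il1a was seen in 6.09% of A and 24.5% of B, Cxcl3 in 13.9% and 26.5%, and Tnf in 10.4% and 28.4%. After thinning to 1000 UMIs, which left out 3 cells of A and 2 of B, Tnf was seen in 0.893% of A and 17.0% of B. Of 10 cytokines 4 were higher in B (Il1a, Il1rn, Tnf and Csf1) and 0 in A, and of 7 chemokines 5 were higher in B and 0 in A, the calls for Il1rn and Ccl4 being lost in the clustering without listed genes. Il1b did not follow: it stood at 12392 CPM in A and 15362 in B (1.24-fold, 1.19 to 1.29), with medians per cell of 126 and 132 UMIs per 10000.

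Among survival genes 6 of 12 were higher in B, including Gadd45b (2.36-fold, 2.18 to 2.56), Cflar, which encodes the caspase-8 inhibitor c-FLIP (2.49-fold, 1.80 to 3.47), and Bcl2a1a, Bcl2a1b and Bcl2a1d, near-identical copies whose separate values are uncertain. Of 20 hypoxia and glycolysis genes 6 were higher in B, among them the lipid droplet protein Hilpda (4.40-fold, 3.15 to 6.24), the oxidoreductase Ero1l (5.50-fold, 3.72 to 8.34), Bnip3 (6.57-fold, 3.47 to 13.5) and Nos2 (5.95-fold, 2.17 to 20.3). Of 20 NF-kB genes Tnfaip3, Nfkb1, Traf1 and Icam1 were higher in B, of which Tnfaip3 lost its call without the highest cell of each cluster (log2 ratio -0.99) and Nfkb1 in the clustering without listed genes. That clustering left 5 of the 6 survival genes, without Xiap, and 5 of the 6 hypoxia genes, without Tpi1. Nfkbia stood at 3375 against 6498 CPM, just under 2-fold. Spp1 (osteopontin) was 43.1-fold (20.6 to 109) higher in B, but was seen in 12.7% of its cells, and 1 cell held 35.7% of all its neutrophil UMIs. Chemoattractant receptors, with 0 of 8 called in either direction, and cytoskeleton genes, with 0 of 19, showed no such split: Cxcr2 was 0.903-fold (0.737 to 1.11) in A over B, Fpr1 0.938-fold (0.699 to 1.26) and C5ar1 0.970-fold (0.782 to 1.20). Among markers of other cells, those of fibroblasts summed to 210.0 CPM in A and 309 in B, and those of keratinocytes to 328 and 435. Monocyte markers summed to 3719 CPM in A and 1239 in B, and mast cell markers to 1465 and 1475.

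**Figure D4:**
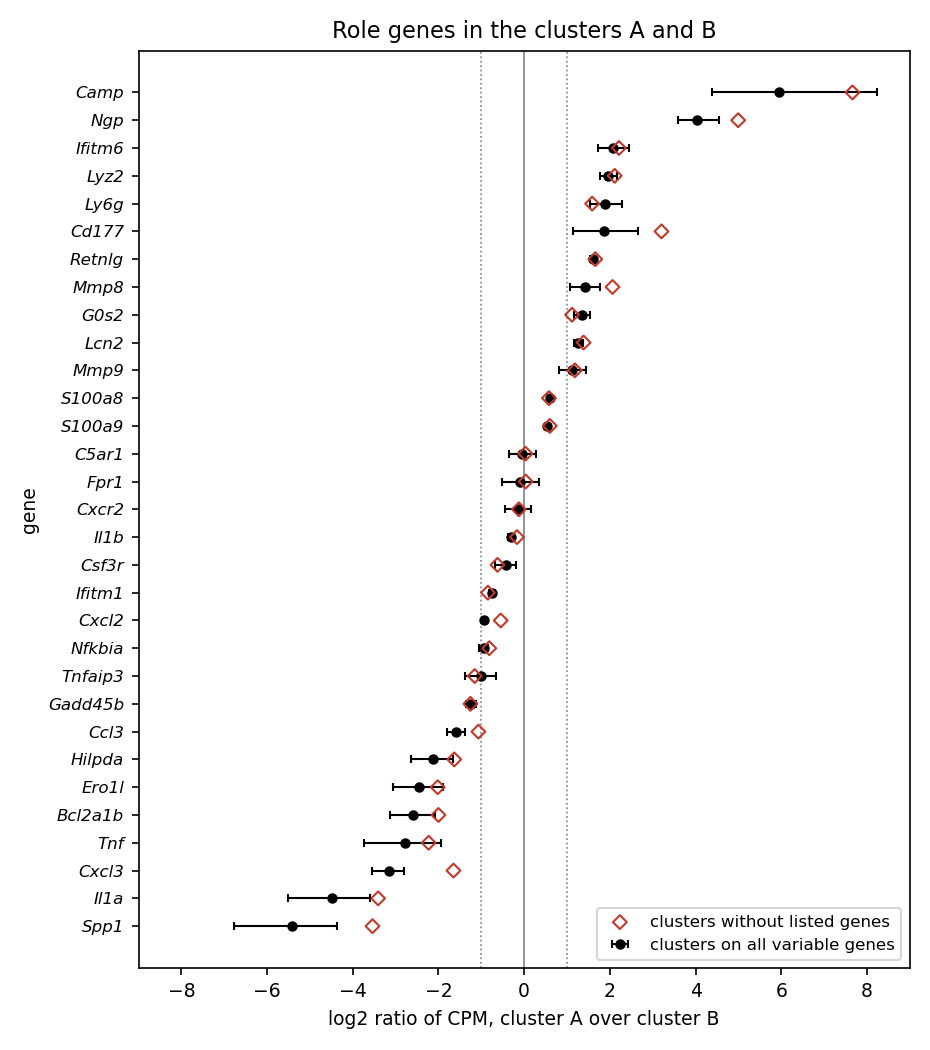
Points give the log2 ratio of CPM in cluster A over cluster B for genes in rows, with 95% intervals for counting error, and open diamonds the same ratio when the cells were clustered without the listed genes. Dotted lines mark 2-fold. Granule genes lie to the right in both clusterings, the receptors Cxcr2, Fpr1 and C5ar1 near 0, and Cxcl3, Il1a, Tnf and Spp1 to the left.

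**Figure D5:**
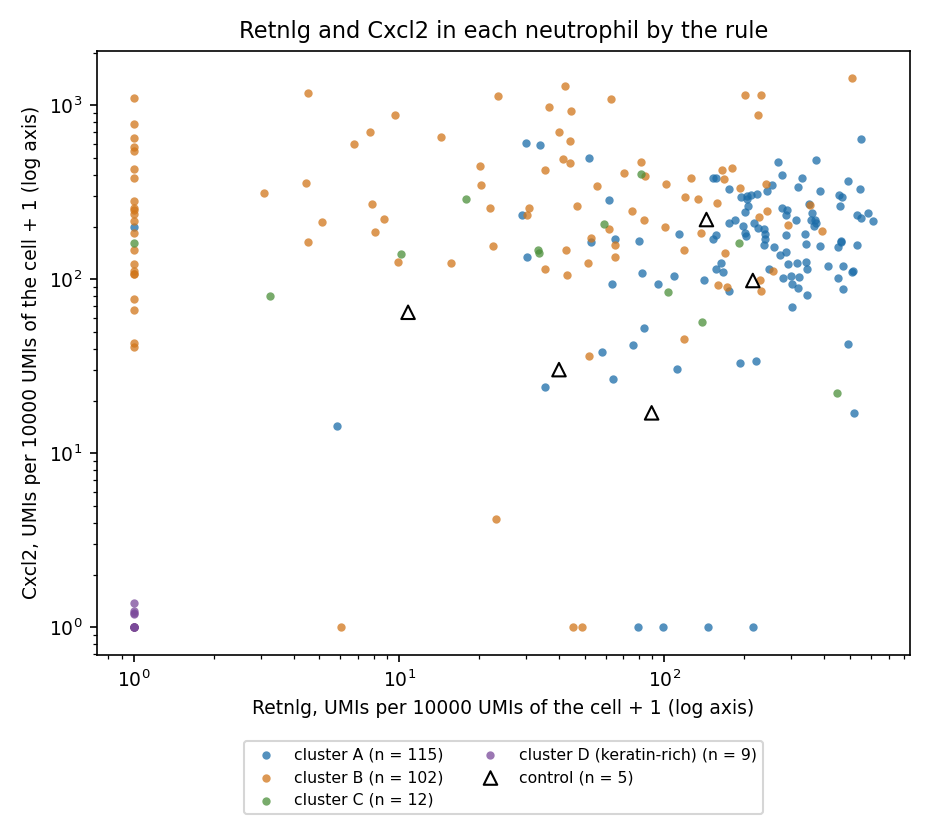
Each point is 1 neutrophil, with Retnlg and Cxcl2 in UMIs per 10000 of the cell plus 1, both on log axes. Cells of cluster A lie to the right with high Retnlg, cells of cluster B spread from 0 upward in Retnlg at similar or higher Cxcl2, keratin-rich cells lie at the lower left, and the 5 control cells, drawn as triangles, lie at Retnlg values within the range of clusters A and B.

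Cluster C held 12 cells whose leading genes came from 1 cell. By summed UMIs it was led by the MHC class II genes H2-Eb1 (108 UMIs), H2-Aa (101) and H2-Ab1 (108) and by Cd74 (233). The highest cell held 97.3%, 97.1% and 93.9% of all neutrophil UMIs of the MHC class II genes and 87.0% of those of Cd74, so these genes do not describe the cluster. Ngp was likewise carried by few of its cells, with 92 UMIs in 1 cell, 1 UMI in another and 10 of the 12 at 0. Retnlg was present in 11 of the 12, with a median of 45.5 UMIs per 10000. The median mitochondrial share was 2.20%, against 0.438% in A and 0.430% in B, and monocyte markers summed to 5835 CPM, against 3719 in A. The cluster was given no name.

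Across the 217 cells of clusters A and B the transcripts that went with Retnlg were those of granules and markers. Over 383 genes with at least 200 UMIs, the highest Pearson correlations of log-scaled UMIs per 10000 with Retnlg were those of Lcn2 (r = 0.64), Wfdc21 (0.62) and Ly6g (0.54), and the lowest those of Mif (-0.38), Gadd45b (-0.36) and Ppp1r15a (-0.34). Retnlg also correlated with the log depth of the cell (r = 0.49), so depth moves with these values and its part was not tested. Il1b went most with Pim1 (0.37), Ptgs2 (0.36) and Nfkbia (0.35) and least with Camp (-0.26), with little relation to depth (r = 0.03). These correlations are across cells of 1 library that share its free RNA, and they describe these cells.

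The control library held 5 cells that met the rule, with 1244 to 2053 UMIs and 9350 in all, too few for a comparison of genes. Their S100a8 and S100a9 share was 16.3%, 12.6%, 6.22%, 21.8% and 11.1%, and their Retnlg counts were 11, 28, 2, 44 and 8 UMIs. Il1b was present in each of the 5, with 38, 46, 35, 37 and 19 UMIs, or 18717 CPM (16046 to 21704) in sum. Cxcl2 had 2, 43, 13, 20 and 6 UMIs, or 8984 CPM (7166 to 11123). Retnlg stood at 9947 CPM (8028 to 12185), Csf3r at 1604 (898 to 2646) and Ly6g, from 3 UMIs, at 321 (66.2 to 938). Cxcl3, Tnf, Ccl3, Ngp and Camp had 0 UMIs, and a count of 0 in 9350 UMIs allows up to 3 counts, or 321 CPM. That limit lies above the level of Tnf in either cluster and below that of Ccl3 in either cluster of treated skin. It covers counting alone and not the spread between cells, and Ccl3 had 0 UMIs in 96 of the 229 cells of treated skin. Whether Ccl3 differs in the control was not tested.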

How the data were processed

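Single-cell RNA was measured in 1 library of untreated and 1 of imiquimod-treated skin. The deposited files hold UMI counts per gene and barcode, with none under 500 UMIs. Per the file headers they were made with Cell Ranger 5.0.0, while the submitters' processing notes name Cell Ranger 3.0.2, Seurat 2.0 and mm10. The protocol names the Chromium version 2 kit. The sources used here do not state which reads were counted or their strand.

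The rule, the gene lists and the cells compared were chosen with earlier results of these data known. Genes named are the 30 with the highest and 12 with the lowest ratio, the most variable genes, and members of the lists, and other genes were chosen after their values were seen. UMIs were summed over cells and compared as CPM, with exact conditional binomial intervals, exact binomial (Clopper-Pearson) intervals for shares and a floor of 3 counts. With 1 library a group no p-value was computed. Clusters came from scanpy 1.11.5 and leidenalg 0.10.2 (2000 variable genes, 20 components, 15 neighbours, resolution 0.5). Doublets were called with Scrublet and kept. Free RNA was estimated from 33 markers of other cell types. The ratio and its intervals were tested on simulated counts with Poisson counting error alone. Many genes vary more than that between the real cells, and the simulation does not cover this spread. Gene positions are from GENCODE M21 (GRCm38), which matched 27645 of 27998 gene IDs, and promoters from RefSeq. Alternatives were other thresholds of the rule, leaving out keratin-rich cells or doublets, subtracting free RNA, other totals and other clusterings. Some members of the lists are counted but not reported by name here.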

Additional observations from a re-analysis of the deposited data

How the results depend on the processing

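No paired analysis was possible because each group had 1 library and no result comes from a test across samples. The number of cells that met the rule in treated skin was 303 with a threshold of 2% S100a8 and S100a9 and 202 with 10%. With the all-gene median set to 0, 2087 genes were higher and 3841 lower in place of 1358 and 6283, and at a minimum of 4-fold 805 and 3508. A Leiden resolution of 1 gave 7 clusters in place of 4. The directions that reversed were those of genes high in the 9 keratin-rich cells. Without keratin-rich and collagen-rich cells the median log2 ratio of the stefin A genes was -0.14, and the log2 ratios were -2.02 for BC100530, -2.04 for Stfa3, -3.63 for Csta1, -1.89 for Ccl20, -0.54 for Il18, -3.66 for Serpinb2, -4.17 for Sprr2d, -6.37 for Crct1, -6.89 for Klk7, -6.28 for Rbp2 and -5.94 for Cst6. In the 2 large clusters alone the same genes stood, in this order, at -1.91, -1.93, -3.48, -1.73, -0.70, -3.83, -4.44, -6.21, -6.73, -6.13 and -5.79. At a threshold of 10% BC100530, Stfa3, Csta1 and Ccl20 stood at -0.30, -1.48, -2.50 and -1.95. With cells weighing equally Ccl20, Il18, Cst6 and Serpinb2 stood at -0.24, -0.39, -0.029 and -0.020, and without its highest cell Ccl20 stood at -4.07. The settings that keep the 2 large clusters, cluster without listed genes or, between clusters, change the totals, the weights or single cells were added after the data were seen. A gene with under 20 UMIs over both sets was not compared, which limits what these shallow cells show.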
